A study of Rattus norvegicus with 18 samples.

Results

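Livers of rats 7 days after birth were compared with livers of fetuses at embryonic day 21 (E21), shortly before term birth. The comparison held 6 of 18 arrays, 3 of livers titled as 7 day postnatal and 3 titled E21, chosen by those titles alone. All were total RNA from flash-frozen liver of Sprague Dawley rats, an outbred strain, with food and water freely available. The 7 day age was counted from a birth that was watched directly. The E21 fetuses had been taken by C-section and killed before they could breathe, so that they had neither breathed nor suckled. A further group, 3 livers taken 1 day after a watched birth, was used where the level at the end of the first day bears on a 7 day value. The series sampled 3 dams at each of 6 ages, from E21 through the first hours and day of life to 7 days, on Affymetrix Rat Transcriptome 1.0 arrays, which read most genes with 1 probe set, a transcript cluster, spread over the whole transcript. The labels give neither the number nor the sex of the pups behind a sample.

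Before birth the liver is a site of blood formation as well as of metabolism, and its hepatocytes, the main liver cells, live on glucose and amino acids that cross the placenta. After birth blood formation moves to bone marrow and spleen, and a suckling pup lives on milk, which is rich in fat. Over the same weeks hepatocytes take up the adult work of drug clearance, bile formation, plasma protein secretion and division of labour along the lobule, from the periportal side, where blood enters, to the pericentral side, where it leaves.

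Levels are given as log2 of the deposited intensity, so that 1 unit is a doubling, with replicates 1, 2 and 3 of an age in that order. A difference is the 7 day mean minus the E21 mean on that scale, with limma's moderated standard error after ±, n = 3 arrays per age. A gene was called higher or lower at 7 days where the Benjamini-Hochberg adjusted p of that test was under 0.05 over 18926 genes. Probe sets differ in how brightly they read, so levels were set against each other within a gene and not between genes. A reading under 6.10, the 95th percentile of 828 readings of 46 genes taken to be silent in liver, was treated as dim, and a gene dim on all 3 arrays of an age has only a lower bound for its difference, written "at least". Where only some of the 3 were dim, the fitted difference and that bound are both given. At the other end, 18 genes sat at the upper limit of the scale on all 6 arrays. Albumin (Alb) and alpha-fetoprotein (Afp) were among them, Alb at 19.92 to 19.93 at 7 days and 19.93 to 19.93 at E21, and so was fetuin A (Ahsg). Any change in these genes could not be measured.

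The liver label was borne out by hepatocyte transcripts on all 6 arrays. The carrier protein transthyretin, Ttr, read 19.54, 19.59 and 19.60 at 7 days, against 18.90, 19.55 and 19.55 at E21, and Apob, the backbone protein of very low density lipoprotein, read 19.47, 19.60 and 19.46 at 7 days, against 19.10, 18.85 and 18.96 at E21. Serpina1, alpha-1-antitrypsin, read low for a hepatocyte marker, at 7.53, 7.56 and 7.54 in the 7 day livers and 7.54, 7.54 and 7.59 at E21.

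Each 7 day array was then looked at apart, because 2 of the 3 carried transcripts of a neighbouring tissue. On 7 day replicate 3, 21 of 33 acinar genes, those of the pancreatic cells that make digestive enzymes, stood at least 1 log2 unit above every E21 array. Among them were Ctrb1 (chymotrypsinogen) at 17.80, Pnliprp1 (a lipase relative) at 15.74 and Cel (bile salt lipase) at 15.54, while on 7 day replicates 1 and 2 the same 3 genes read between 4.12 and 5.59. The summed intensity of the list was 1211, 1311 and 389400 on 7 day replicates 1, 2 and 3, against 1216, 4029 and 1761 at E21. The proteases Cpa1 and Prss1 read 14.74 and 11.23 on that array and under the background limit on the other 5, and neither passed (adjusted p = 0.283 and adjusted p = 0.197). Islet genes were raised far less: insulin 2, Ins2, read 6.93, 6.95 and 7.63 at 7 days, against 7.21, 7.10 and 6.84 at E21, and glucagon, Gcg, 4.30, 4.56 and 6.78 at 7 days, against 4.40, 4.29 and 4.46 at E21.

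On 7 day replicate 2, 29 of 56 skeletal muscle genes stood at least 1 log2 unit above every E21 array, led by Acta1, the actin of skeletal muscle, at 13.78. Acta1 read 6.34 and 6.69 on the other two 7 day arrays, against 6.87, 6.43 and 6.88 at E21. Myh2, a fast myosin, read 10.21 on that array, and creatine kinase, Ckm, read 8.44, both under the background limit on the other 5 arrays. On 7 day replicate 1 neither list was raised. Few of these genes passed the test: of 33 acinar genes 2 were higher (Cpb1 and Spink1), but 4 without 7 day replicate 2 and 6 without 7 day replicate 1, and of 56 muscle genes 1 was lower (Tnni1) and none higher, but 2 without 7 day replicate 1 and 4 without 7 day replicate 3 were higher. Genes of stomach, adrenal and kidney stayed under the background limit on all 6 arrays. Of 14 cartilage, bone and diaphragm genes, 12 were dim on all 6 arrays and 2 were higher (14.3%, near the 12.8% of all genes). One of the 2 was Prg4, lubricin, a protein of joint and organ linings, at 11.69, 12.37 and 13.08, against 9.21, 8.88 and 9.15 at E21. Counts of list members against E21 below are given also without single arrays where that moved them by over 1.5 times. In brackets stand, for most lists, the counts higher and lower "on replicate 1 alone", from the fit without both affected arrays. For some lists the median on replicate 1 alone is given instead. That fit has 1 array at 7 days, takes its spread from the other ages and assumes that this liver varies as they do, so its counts are a check and not separate evidence. Fits without 1 or more of the 6 arrays called fewer genes over all genes too. Their list counts are therefore not to be set against the shares of all genes in the full fit.

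**Figure D1:**
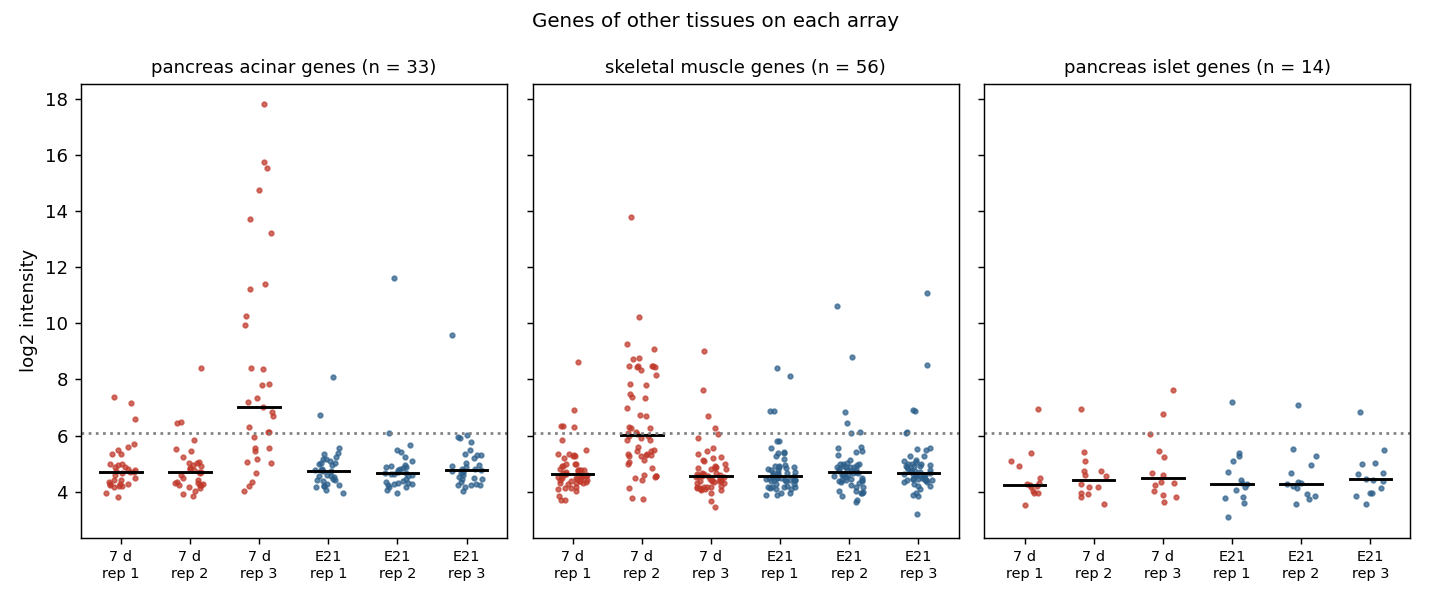
Log2 intensity (vertical axis) of acinar pancreas, skeletal muscle and pancreatic islet genes on each 7 day array (red, left) and each E21 array (blue, right). Each point is a gene, the black bar is the median and the dotted line is the background limit of 6.10. The acinar genes stand out on 7 day replicate 3, where the median is 7.01, and the muscle genes on 7 day replicate 2.

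In the comparison of 7 days with E21, 4314 of 18926 genes (22.8%) were called, 2422 of them higher at 7 days (12.8%) and 1892 lower (10%). The median difference was 0.77 among genes called higher and −0.84 among genes called lower, and 812 and 739 of them differed by more than 2-fold. Of the genes called, 432 higher ones were dim on all 3 arrays of E21 and 379 lower ones on all 3 of 7 days. Among the 46 genes taken to be silent, 4 were called lower, and 2 without 7 day replicate 1 or E21 replicate 3. All 3 arrays of 7 days lay above all 3 of E21 in 3791 genes (20%) and below them in 3222 (17%). A call held in each of the 3 fits that left out one 7 day array for 1535 higher genes (8.11%) and 1175 lower genes (6.21%), and without each of the 6 arrays for 1484 (7.84%) and 1129 (5.97%). With 7 day replicate 1 as the only 7 day array, and the spread taken from the other ages, the calls numbered 1065 higher and 742 lower. In whole liver, fewer cells of a type and less RNA per cell cannot be told apart, which bears on every list below that marks a cell type. Levels are also relative to all RNA on an array, so a changed share of blood cells may move hepatocyte lists too. Its part was not tested.

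**Figure D2:**
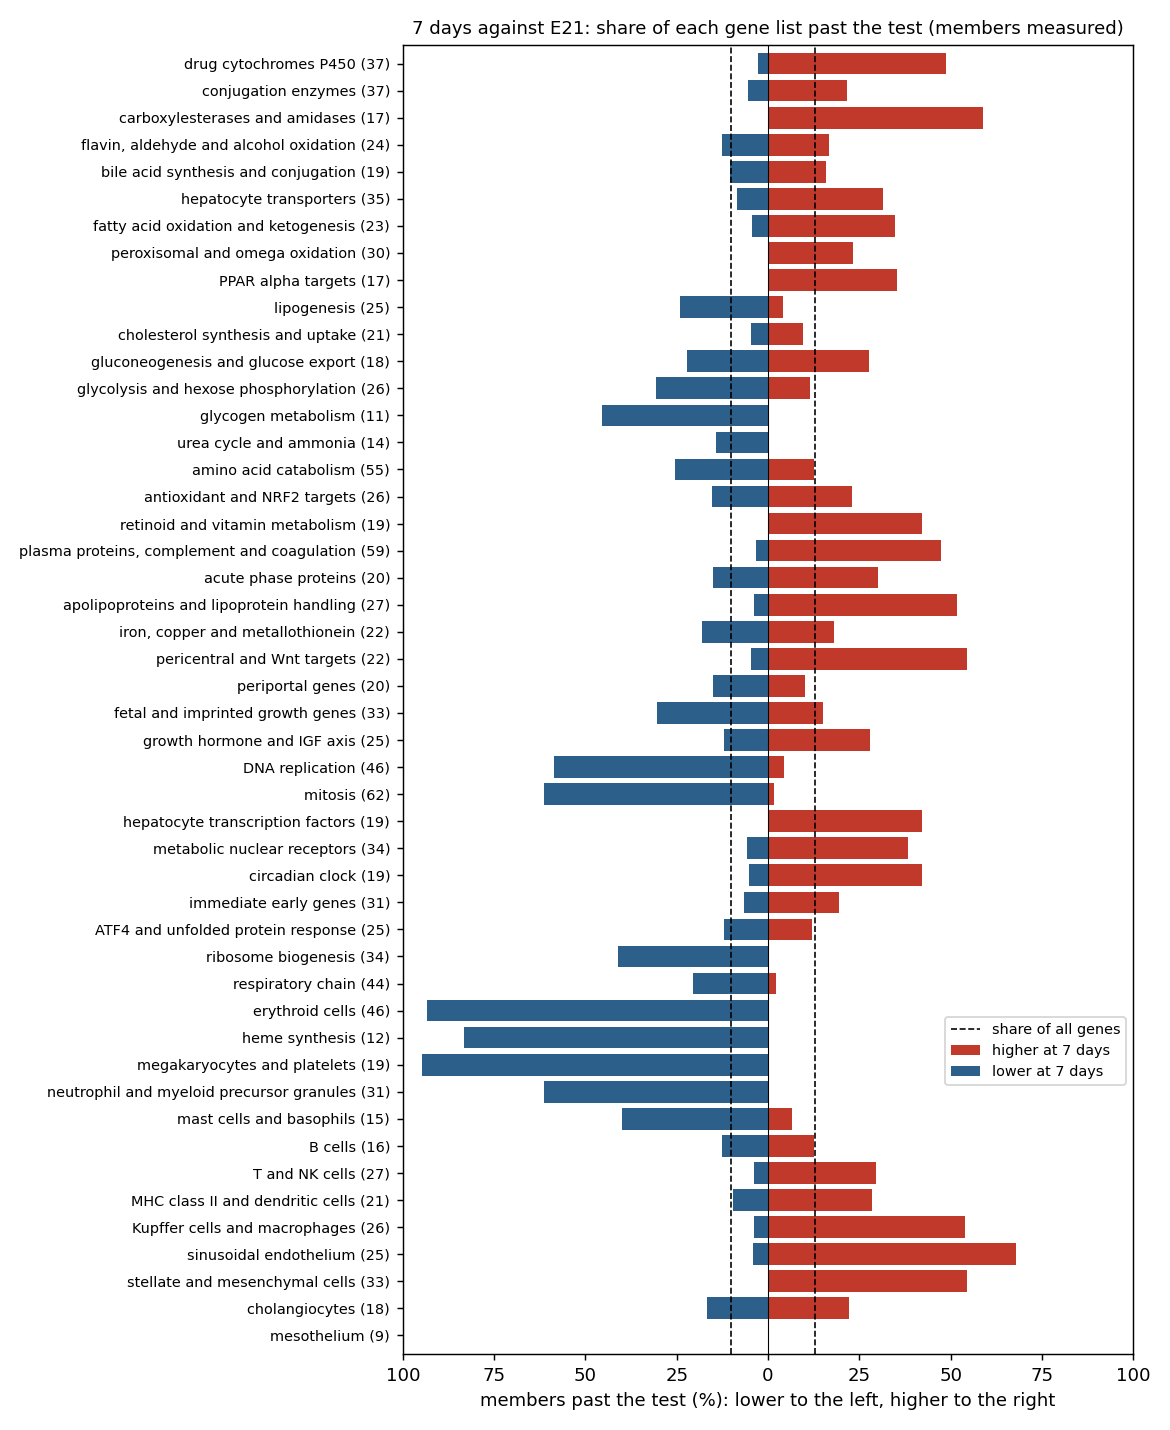
Share of each gene list called higher (red bars, to the right) or lower (blue bars, to the left) at 7 days against E21, in percent of the members measured, whose number stands in brackets. The dashed lines mark the share of all genes, 12.8% higher and 10% lower. Lists of platelets and erythroid cells reach furthest to the lower side (18 of 19 and 43 of 46 members). Those of sinusoidal endothelium and of carboxylesterases and amidases reach furthest to the higher side (17 of 25 and 10 of 17). The latter list also holds flavin monooxygenases and paraoxonases.

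The largest rise among genes that held without each 7 day array belonged to Cyp1a2, a pericentral cytochrome P450 that clears caffeine and many drugs. It read 16.54, 16.48 and 14.67 at 7 days, against 7.30, 5.98 and 6.82 at E21, a difference of 9.20 ± 0.85, adjusted p = 2.76e-06, 1 E21 array dim; it rose by at least 9.16 with that reading at the background limit. Ces2e, a carboxylesterase that splits ester drugs and lipids, read 13.49, 13.92 and 12.95 at 7 days, against 6.01, 5.22 and 6.71 at E21 (7.48 ± 0.35, adjusted p = 1.84e-08, 2 E21 arrays dim; it rose by at least 7.15 with those readings at the background limit). All 3 livers of 7 days stood far above all 3 fetal livers for both genes. Inhbe, which encodes the subunit of activin E, a secreted liver factor, read 14.05, 14.44 and 16.48 at 7 days, against 7.26, 8.76 and 8.99 at E21 (6.65 ± 1.004, adjusted p = 0.000202). A second carboxylesterase, Ces1c, followed at 14.84, 15.25 and 13.42 at 7 days, against 8.69, 6.003 and 9.33 at E21 (6.50 ± 0.72, adjusted p = 1.28e-05, 1 E21 array dim; it rose by at least 6.46 with that reading at the background limit).

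Car3, carbonic anhydrase 3, was dim on every E21 array (5.04, 5.30 and 5.14) and read 11.64, 12.10 and 7.73 at 7 days, a rise of at least 4.39. Muscle makes this enzyme too. Replicate 1, where muscle genes were not raised, read 11.64 and replicate 2, where they were, 12.10, and the part of muscle in the rise was not tested. Avpr1a, the vasopressin receptor of hepatocytes, read 11.28, 12.11 and 11.18 at 7 days, against 7.59, 5.05 and 6.48 at E21 (5.15 ± 0.60, adjusted p = 1.92e-05, 1 E21 array dim; it rose by at least 4.80 with that reading at the background limit). Others of the 15 largest rises were Slc13a4, a sulfate carrier, by 5.15, the phosphate carriers Slc34a2, by 4.995, and Slc17a2, by 4.69, and Slc25a47, a carrier of liver mitochondria, by 4.72. Cldn3, a tight junction protein, read 11.19, 10.40 and 9.87 at 7 days, against 6.44, 5.23 and 4.93 at E21 (4.95 ± 0.41, adjusted p = 1.14e-06, 2 E21 arrays dim; it rose by at least 4.27 with those readings at the background limit). The B cell attracting chemokine Cxcl13 spread widely among the 7 day livers, at 10.11, 13.20 and 8.83 at 7 days, against 6.22, 5.38 and 5.88 at E21 (4.88 ± 0.70, adjusted p = 0.00013, 2 E21 arrays dim; it rose by at least 4.57 with those readings at the background limit). LOC100911718, a gene known here by that name alone, rose by 5.14, or by at least 4.80 with its 1 dim E21 reading at the background limit.

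Hdc, the enzyme that makes histamine and one long known from fetal rat liver, fell furthest of all genes. It read 6.40, 6.71 and 5.44 at 7 days, against 17.21, 19.47 and 19.37 at E21, a difference of −12.50 ± 0.83, adjusted p = 2.63e-07, 1 7 day array dim; it fell by at least 12.28 with that reading at the background limit. The 3 livers of 7 days sat close to background, and E21 replicate 1 was the lowest of the fetal livers. Rbp2, a cellular retinol binding protein, read 9.84, 9.49 and 8.83 at 7 days, against 14.92, 17.68 and 17.45 at E21 (−7.30 ± 0.74, adjusted p = 5.78e-06). Gsn, gelsolin, which severs actin filaments, read 8.19, 8.33 and 8.75 at 7 days, against 14.61, 15.62 and 14.59 at E21 (−6.51 ± 0.51, adjusted p = 7.28e-07). Hif3a, a hypoxia-inducible factor subunit, was dim on every 7 day array (5.89, 5.45 and 5.70) and read 11.81, 12.85 and 11.69 at E21, so that it fell by at least 6.02.

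Fatty acid desaturase Scd2 read 10.57, 11.61 and 11.21 at 7 days, against 14.98, 17.33 and 18.40 at E21 (−5.77 ± 0.60, adjusted p = 7.66e-06). Lpin1, a phosphatidate phosphatase and transcriptional coactivator, read 9.40, 9.31 and 9.06 at 7 days, against 14.96, 13.47 and 14.89 at E21 (−5.18 ± 0.44, adjusted p = 1.18e-06). The groups were wide apart for both. Gpc3, glypican 3, an oncofetal proteoglycan, read 10.52, 9.05 and 10.84 at 7 days, against 14.97, 15.46 and 15.54 at E21 (−5.19 ± 0.53, adjusted p = 5.94e-06). The other genes of the 15 that fell most were the bile acid enzyme Cyp7a1 and genes of platelets, red cells and myeloid granules, described with their lists below. Among genes outside every list, F13a1, coagulation factor XIII subunit A, fell by 4.94, Mmrn1, a multimerin, by 4.87, and Serpinb10, a serpin of myeloid cells, by 5.03. With 2 of the 7 day arrays dim and set to the background limit, Mmrn1 fell by at least 4.67.

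**Figure D3:**
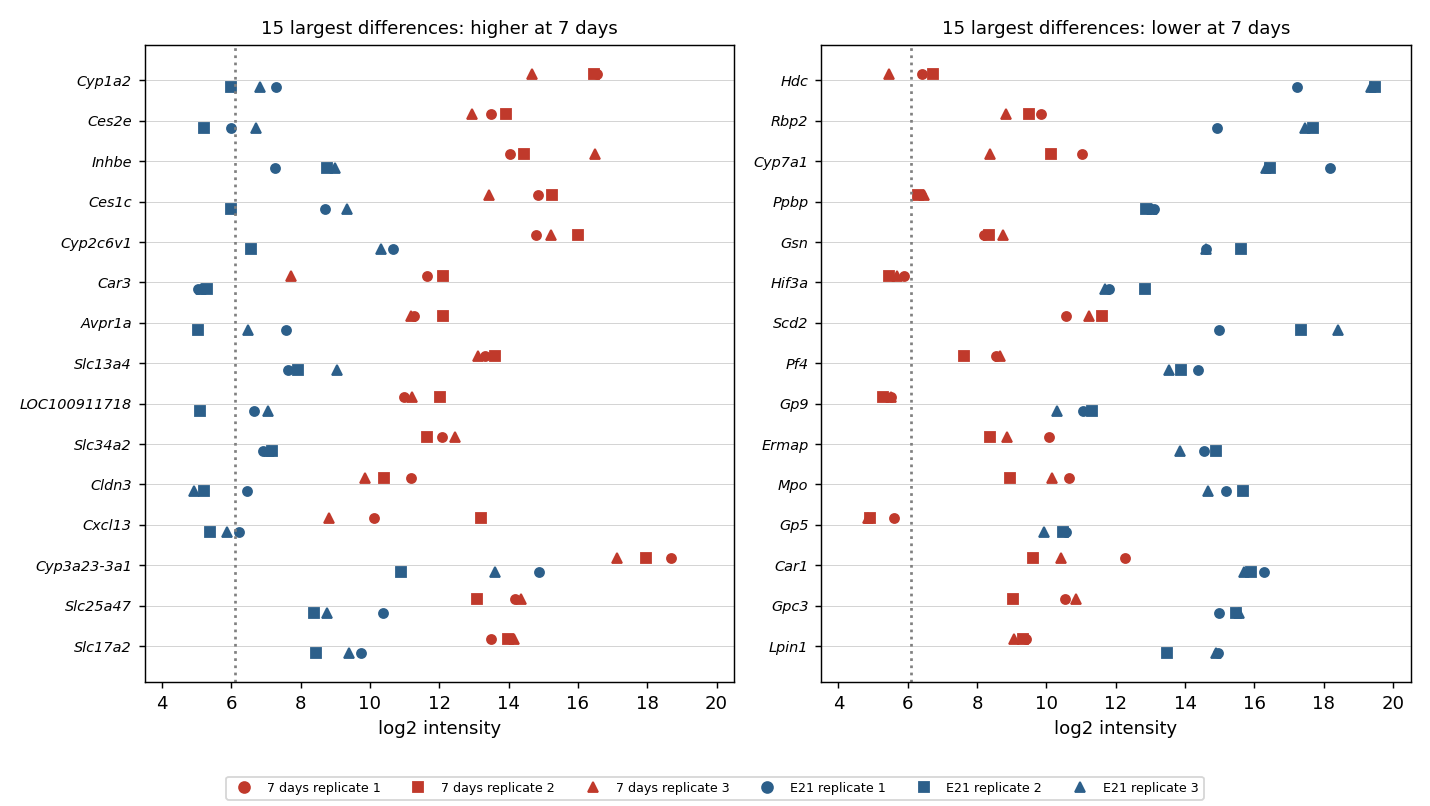
Log2 intensity (horizontal axis) of the 15 genes that were higher by most (left panel) and lower by most (right panel) at 7 days. In each row the 7 day arrays are red and above, the E21 arrays are blue and below, marker shape gives the replicate, and the dotted line is the background limit of 6.10. The ages do not overlap in any row, which the rule for choosing these genes requires.

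Many genes of drug clearance were higher at 7 days, and few were lower. The drug P450 list held cytochromes P450 of drug metabolism and their electron carriers Por, Cyb5a and Cyb5r3. Of its 37 genes, 18 were higher and 1 lower (background 12.8% and 10%), and the median difference was 0.98. The lower one was not called without 7 day replicate 2 or 3 or E21 replicate 1 or 3. On single 7 day arrays the median stood 1.05, 0.86 and 0.77 above the genes' E21 means. Cyp2c6v1, a constitutive rat P450, read 14.80, 16.01 and 15.23 at 7 days, against 10.67, 6.58 and 10.33 at E21 (6.15 ± 1.05, adjusted p = 0.000547). Cyp3a23-3a1, a rat P450 inducible by glucocorticoids, read 18.70, 17.96 and 17.13 at 7 days, against 14.89, 10.89 and 13.59 at E21 (4.80 ± 0.85, adjusted p = 0.000751). Both had their lowest level on E21 replicate 2. The ethanol-oxidizing Cyp2e1 showed the same spread, at 19.08, 19.24 and 18.71 at 7 days, against 17.65, 12.44 and 15.31 at E21. Its difference of 3.88 ± 1.17 (adjusted p = 0.0247) did not pass without 7 day replicate 1, 2 or 3 or E21 replicate 2 or 3 (adjusted p 0.0509 to 0.133). P450s, carboxylesterases and sulfotransferases form families of close copies whose probe sets may share signal.

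Cyp3a2, an abundant P450 of rat liver, read 19.53, 19.61 and 19.40 at 7 days, against 18.30, 15.08 and 16.16 at E21 (2.998 ± 0.67, adjusted p = 0.00436). The exception was Cyp2a3, at 7.51, 6.69 and 6.35 at 7 days, against 9.52, 7.15 and 10.55 at E21 (−2.22 ± 0.67, adjusted p = 0.0242), where the groups overlapped, and it did not pass without 7 day replicate 2 or 3 or E21 replicate 1 or 3 (adjusted p 0.0738 to 0.122). Cyp2c11, the P450 of adult males, was dim at both ages, at 5.003, 4.96 and 4.76 in the 7 day livers and 4.73, 4.75 and 4.83 at E21. Among 17 genes, carboxylesterases, flavin monooxygenases, paraoxonases and Aadac, 10 were higher and 0 lower (median 0.80, and 1.01 on replicate 1 alone). Besides Ces2e and Ces1c these included Ces1e, at 10.37, 10.14 and 9.51 at 7 days, against 7.43, 6.41 and 7.66 at E21 (2.84 ± 0.32, adjusted p = 1.34e-05). Ces2a read 10.83, 9.98 and 8.52 at 7 days, against 7.31, 6.80 and 7.47 at E21 (2.58 ± 0.43, adjusted p = 0.000438).

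Conjugation enzymes, which attach sulfate, glucuronate or glutathione, moved less as a list. Of 37, 8 were higher and 2 lower (21.6% and 5.41%, against 12.8% and 10% of all genes). The median was 0.12, and 0.31 on replicate 1 alone. Lower ones numbered 0 without 7 day replicate 3 or E21 replicate 1 and 1 without 7 day replicate 2. The hydroxysteroid sulfotransferases rose, Sult2a6 to 16.64, 17.31 and 16.28 in the 7 day livers, against 13.003, 12.06 and 13.11 at E21 (4.02 ± 0.40, adjusted p = 4.88e-06), and Sult2a1 by 2.25 with 2 E21 arrays dim, or at least 2.04 with those at the background limit. The glucuronosyltransferase Ugt2b10 read 15.50, 16.02 and 15.80 at 7 days, against 12.54, 10.58 and 13.73 at E21 (3.49 ± 0.70, adjusted p = 0.00203). The phenol sulfotransferase Sult1a1 went the other way, at 15.64, 14.78 and 14.34 at 7 days, against 16.35, 16.35 and 16.24 at E21 (−1.39 ± 0.40, adjusted p = 0.0202), and did not pass without 7 day replicate 2 or 3 or E21 replicate 1 or 2 (adjusted p 0.056 to 0.0969). In flavin, aldehyde and alcohol oxidation, 4 of 24 genes were higher and 3 lower (16.7% and 12.5%, near the 12.8% and 10% of all genes). Higher ones were down to 2 without 7 day replicate 1 or 2 and lower ones to 1 without 7 day replicate 3. Aldh1a1, an aldehyde dehydrogenase that makes retinoic acid, read 8.49, 9.04 and 9.30 at 7 days, against 6.36, 6.45 and 6.34 at E21 (2.56 ± 0.31, adjusted p = 2.9e-05). Uox, the urate oxidase of rodents, read 15.43, 14.83 and 13.94 at 7 days, against 16.60, 16.39 and 16.77 at E21 (−1.85 ± 0.47, adjusted p = 0.00999), and did not pass without 7 day replicate 3 (adjusted p of 0.0549).

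Single genes of bile acid synthesis and conjugation were called in both directions. Cyp7a1, the rate-limiting enzyme of bile acid synthesis, read 11.03, 10.13 and 8.38 at 7 days, against 18.19, 16.45 and 16.32 at E21 (−7.14 ± 1.38, adjusted p = 0.00146). Cyp8b1, which directs synthesis to cholic acid, read 12.19, 9.58 and 9.83 at 7 days, against 15.39, 14.95 and 15.22 at E21 (−4.65 ± 0.73, adjusted p = 0.000294). Both were lower in every 7 day liver than in any fetal liver, with 7 day replicate 1 the least low. Baat, which joins bile acids to taurine or glycine, was higher, at 14.35, 14.58 and 14.40 at 7 days, against 11.61, 9.56 and 12.01 at E21 (3.38 ± 0.52, adjusted p = 0.000247), as was Cyp39a1, the hydroxylase of 24-hydroxycholesterol, by 2.34 (adjusted p = 0.0002). Of 19 genes on the list, 3 were higher and 2 lower (2 and 0 on replicate 1 alone), close to the background shares.

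Of 35 hepatocyte transporters, 11 were higher and 3 lower (7 and 1 on replicate 1 alone, median 0.37), with higher ones down to 7 without 7 day replicate 1. The paired transporters that export sterols were dim in every fetal liver: Abcg5 read 10.22, 10.06 and 7.45 at 7 days, against 5.26, 5.71 and 5.50 at E21, a rise of at least 3.14, and Abcg8 rose by at least 1.23. In both, 7 day replicate 3 was the lowest of its age. The organic anion carrier Slc22a7 read 11.39, 11.28 and 10.98 at 7 days, against 7.97, 7.09 and 7.59 at E21 (3.67 ± 0.27, adjusted p = 4.27e-07). Glucose carriers of fetal and blood cells were lower, Slc2a3 at 6.25, 5.90 and 6.23 at 7 days, against 8.99, 9.38 and 9.22 at E21 (−3.07 ± 0.41, adjusted p = 6.22e-05, 1 7 day array dim; it fell by at least 3.01 with that reading at the background limit) and Slc2a1, which fell by 1.89 (adjusted p = 0.00191). The bile salt export pump Abcb11 read 15.35, 15.43 and 15.20 at 7 days, against 15.09, 14.32 and 15.44 at E21 and the bile salt uptake carrier Slc10a1 17.95, 18.04 and 17.76 at 7 days, against 17.44, 16.74 and 17.52 at E21, and neither passed (adjusted p = 0.462 and adjusted p = 0.105).

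Genes of fat burning were more often higher than lower, and genes of fat making more often lower than higher. The lists of fat burning share members, Cpt1a and Acot1 among them, so their counts overlap. Of 23 genes of mitochondrial fatty acid oxidation and ketogenesis 8 were higher and 1 lower (2 and 0 on replicate 1 alone, median 0.29), of 30 of peroxisomal and omega oxidation 7 were higher and 0 lower (7 and 0 on replicate 1 alone, median 0.38), and of 17 targets of the fatty acid sensor PPAR alpha 6 were higher and 0 lower (3 and 0 on replicate 1 alone, median 0.78). In the first of these lists the higher members numbered 4 without 7 day replicate 1 and 5 without 7 day replicate 2 or E21 replicate 2, and the lower ones 0 without 7 day replicate 2 or 3 or E21 replicate 3 and 2 without 7 day replicate 1. Hadh, a dehydrogenase of the oxidation spiral, read 16.81, 16.89 and 16.56 at 7 days, against 14.90, 14.97 and 14.84 at E21 (1.85 ± 0.24, adjusted p = 5.65e-05). Acadm, the medium-chain acyl-CoA dehydrogenase, read 15.16, 14.93 and 14.58 at 7 days, against 13.50, 13.30 and 13.88 at E21 (1.33 ± 0.24, adjusted p = 0.000994).

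Cpt1a, which admits fatty acids to mitochondria, read 14.79, 14.35 and 15.45 at 7 days, against 14.19, 13.90 and 12.17 at E21 (1.44 ± 0.49, adjusted p = 0.0465) and did not pass without 7 day replicate 1 or 3 or E21 replicate 3 (adjusted p 0.0882 to 0.226). Its partner on the inner membrane, Cpt2, was lower (−1.38 ± 0.37, adjusted p = 0.013), and did not pass without 7 day replicate 2 or 3 or E21 replicate 3 (adjusted p 0.0587 to 0.0628). In peroxisomes Crot, carnitine octanoyltransferase, read 15.33, 16.30 and 15.40 at 7 days, against 12.34, 11.45 and 10.32 at E21 (4.31 ± 0.47, adjusted p = 1.05e-05). The glycolate oxidase Hao1 read 14.62, 14.64 and 14.42 at 7 days, against 11.19, 10.87 and 12.20 at E21 (3.14 ± 0.34, adjusted p = 1.02e-05). The lipid droplet coat protein Plin2 rose by 2.53 and the fatty acid binding protein Fabp1 by 2.15. Ppara itself read 12.34, 12.86 and 12.85 at 7 days, against 12.11, 12.55 and 12.41 at E21 and did not pass (adjusted p = 0.596). Fgf21, a hormone of fasting and suckling liver, read 6.78, 6.70 and 7.68 at 7 days, against 4.56, 4.34 and 4.91 at E21, with every fetal array dim, and did not pass either (adjusted p = 0.072).

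Of 25 lipogenic genes, 1 was higher and 6 lower (1 and 3 on replicate 1 alone, median −0.53), the lower ones being 10 without E21 replicate 1 and the higher ones 2 without E21 replicate 1 or 3. Scd, the main stearoyl-CoA desaturase of liver, read 6.59, 7.45 and 6.29 at 7 days, against 9.34, 10.88 and 14.91 at E21 (−4.93 ± 1.01, adjusted p = 0.00227). Acly, which supplies acetyl-CoA to lipid synthesis, read 9.57, 10.47 and 10.46 at 7 days, against 10.86, 12.14 and 14.07 at E21 (−2.19 ± 0.60, adjusted p = 0.0149). E21 replicate 3 was the highest array for both, and Acly did not pass without 7 day replicate 1 or E21 replicate 3 (adjusted p 0.059 to 0.0631). Fasn, fatty acid synthase, followed the same order of fetal arrays, at 9.64, 11.65 and 10.24 at 7 days, against 10.22, 11.84 and 14.51 at E21, and did not pass (adjusted p = 0.227). The lipogenic gene that rose was Elovl5, which lengthens polyunsaturated fatty acids, at 15.99, 16.37 and 15.70 at 7 days, against 12.38, 12.69 and 13.49 at E21 (3.17 ± 0.34, adjusted p = 9.17e-06). In cholesterol synthesis and uptake, 2 of 21 genes were higher and 1 lower (0 and 1 on replicate 1 alone), under the background in sum, with higher ones at 0 without E21 replicate 2 and lower ones at 3 without E21 replicate 1. Insig1, which holds back sterol synthesis, read 9.03, 11.24 and 9.98 at 7 days, against 13.88, 13.47 and 14.62 at E21 (−3.91 ± 0.52, adjusted p = 7.03e-05).

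Of 26 glycolytic genes 3 were higher and 8 lower (3 and 5 on replicate 1 alone), of 11 glycogen genes 0 were higher and 5 lower (0 and 1 on replicate 1 alone), and of 18 genes of gluconeogenesis and glucose export 5 were higher and 4 lower (4 and 1 on replicate 1 alone). Lower glycogen genes numbered 3 without 7 day replicate 1 or 2 or E21 replicate 1 or 2, and lower genes of gluconeogenesis 1 without 7 day replicate 2 or 3 and 2 without E21 replicate 1. The hexokinase Hk1, which red cells also use, read 8.70, 8.31 and 8.47 at 7 days, against 12.12, 11.56 and 11.11 at E21 (−3.11 ± 0.28, adjusted p = 2.37e-06). Pkm, the pyruvate kinase of fetal and non-hepatocyte tissue, fell by 1.11 (adjusted p = 0.000242), while the hepatocyte form Pklr read 13.69, 13.76 and 13.69 at 7 days, against 13.66, 14.54 and 14.52 at E21 and did not pass (adjusted p = 0.427). Hk2, a hexokinase of muscle and fat, was dim at 7 days and read 6.60, 6.63 and 7.01 at E21 (adjusted p = 0.34). Enzymes of fructose use rose: ketohexokinase, Khk, read 10.57, 10.47 and 10.27 at 7 days, against 8.33, 8.44 and 8.75 at E21 (1.94 ± 0.22, adjusted p = 1.56e-05), and triokinase, Tkfc, rose by 2.32 (adjusted p = 7.66e-06). The glycogen branching enzyme Gbe1 read 10.16, 10.48 and 10.12 at 7 days, against 11.17, 12.31 and 13.18 at E21 (−1.97 ± 0.47, adjusted p = 0.00687).

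G6pc1, the glucose-releasing phosphatase, read 14.06, 11.29 and 13.37 at 7 days, against 16.21, 15.15 and 14.71 at E21 (−2.45 ± 0.79, adjusted p = 0.0359), lowest on 7 day replicate 2, and did not pass without 7 day replicate 2 or 3 or E21 replicate 1 or 2 (adjusted p 0.0537 to 0.187). For Pck1, the rate-limiting enzyme of gluconeogenesis, 1 fetal liver lay above the 7 day livers and 2 below: it read 17.06, 15.05 and 17.07 at 7 days, against 18.06, 12.87 and 12.48 at E21 (1.92 ± 1.13, adjusted p = 0.275). E21 replicate 1 was also the high array for Tat, tyrosine aminotransferase, at 14.70, 11.83 and 15.79 at 7 days, against 17.95, 11.02 and 14.44 at E21, and for Sds, serine dehydratase, at 9.10, 6.10 and 5.62 at 7 days, against 14.69, 7.53 and 7.77 at E21. Neither passed (adjusted p = 0.917 and adjusted p = 0.283). Fbp1, fructose bisphosphatase, was even across arrays and rose, at 17.01, 16.58 and 16.86 at 7 days, against 16.22, 15.60 and 15.76 at E21 (0.96 ± 0.21, adjusted p = 0.00318).

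Of 55 genes of amino acid breakdown, 7 were higher and 14 lower (median −0.30), and this count moved with the livers used. The lower members numbered 6 without 7 day replicate 3, 8 without 7 day replicate 2 and 9 without E21 replicate 1. Over all genes, lower calls went from 1892 to 1606, 1293 and 1464 in these fits. Without 7 day replicate 1 the list held 16 lower members, and all genes 1654. On 7 day replicate 1 the list stood at its E21 mean (median 0.02), and on replicates 2 and 3 below it (−0.50 and −0.49). Amdhd1, a step of histidine breakdown, showed it most, at 13.33, 10.32 and 9.40 at 7 days, against 15.16, 14.86 and 14.72 at E21 (−3.90 ± 0.95, adjusted p = 0.00755). Gnmt, glycine N-methyltransferase, was lower in every 7 day liver, at 12.46, 11.47 and 11.11 at 7 days, against 15.39, 14.10 and 14.83 at E21 (−3.09 ± 0.54, adjusted p = 0.000698). Higher members included Prodh2, of hydroxyproline breakdown, by 1.62, and Haao, of tryptophan breakdown, by 1.22.

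In the urea cycle 2 of 14 genes were lower (14.3%, near the 10% of all genes) and none higher. The median on replicate 1 alone was −0.03. Lower ones numbered 1 without 7 day replicate 2 or 3 or E21 replicate 2 or 3, and higher ones 1 without E21 replicate 1. Ass1, argininosuccinate synthase, read 16.77, 14.56 and 14.78 at 7 days, against 18.92, 17.68 and 18.10 at E21 (−2.86 ± 0.59, adjusted p = 0.00237). Cps1, the entry enzyme of the cycle, read 19.26, 18.34 and 17.72 at 7 days, against 19.59, 19.34 and 19.38 at E21 (−0.995 ± 0.33, adjusted p = 0.0375) and did not pass without 7 day replicate 2 or 3 or E21 replicate 1, 2 or 3 (adjusted p 0.0709 to 0.188). The 7 day replicate 1 level stood nearest to the fetal ones for both. Counts for respiratory chain subunits also moved with the array left out. The list's median over its E21 mean was 0.03, −0.34 and −0.33 on 7 day replicates 1, 2 and 3. Of 44 subunits, 1 was higher and 9 lower. The lower ones numbered 3 without 7 day replicate 2 or 3 and 5 without E21 replicate 1 or 3, but 13 without 7 day replicate 1. The higher one was not called without 7 day replicate 1 or 3 or E21 replicate 1.

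Of 59 genes of plasma proteins, complement and coagulation, 28 were higher and 2 lower (17 and 1 on replicate 1 alone), with a median of 0.61, and lower ones numbered 1 without 7 day replicate 1 or E21 replicate 3. The terminal complement genes C6 and C9 read 12.46, 13.32 and 13.65 at 7 days, against 9.50, 9.69 and 10.26 at E21, and 16.32, 15.85 and 16.76 at 7 days, against 13.90, 11.72 and 13.04 at E21 (adjusted p = 1.31e-05 and adjusted p = 5.94e-05). C5, the component they follow, spread widely among the fetal livers, at 17.09, 16.32 and 17.36 at 7 days, against 12.72, 10.78 and 15.94 at E21 (3.78 ± 1.12, adjusted p = 0.0228), and did not pass without 7 day replicate 1 or 3 or E21 replicate 1 or 2 (adjusted p 0.0603 to 0.123). F7, coagulation factor VII, was even within each age, at 13.22, 13.05 and 13.14 at 7 days, against 10.98, 9.98 and 10.37 at E21 (2.70 ± 0.33, adjusted p = 3.17e-05). Serpina3c, a serpin, fell by 1.47. Cfd, complement factor D, fell by 1.02 and did not pass without 7 day replicate 1 or E21 replicate 3 (adjusted p 0.0551 to 0.0815).

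Of 27 genes of apolipoproteins and lipoprotein handling, 14 were higher and 1 lower (4 and 1 on replicate 1 alone, median 0.85), with higher ones numbering 7 without 7 day replicate 3, 8 without 7 day replicate 2 or E21 replicate 1 and 9 without 7 day replicate 1 or E21 replicate 2. Pltp, phospholipid transfer protein, read 11.78, 13.09 and 12.25 at 7 days, against 9.20, 9.12 and 9.72 at E21 (3.03 ± 0.35, adjusted p = 2.01e-05). Lcat, which esterifies cholesterol on lipoproteins, read 17.61, 17.75 and 17.80 at 7 days, against 16.14, 15.58 and 16.02 at E21 (1.81 ± 0.21, adjusted p = 2.09e-05), and Apoc3 rose by 1.79 (adjusted p = 4.76e-05). Apoa2, a protein of high density lipoprotein, was the exception, at 10.26, 9.73 and 10.09 at 7 days, against 12.97, 13.90 and 14.61 at E21 (−3.80 ± 0.47, adjusted p = 3.67e-05). Angptl4, an inhibitor of lipoprotein lipase, passed narrowly (2.38 ± 0.81, adjusted p = 0.0464) and did not pass without 7 day replicate 1, 2 or 3 or E21 replicate 1, 2 or 3 (adjusted p 0.0562 to 0.163).

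On the acute phase list 6 of 20 genes were higher and 3 lower (30% and 15%, against 12.8% and 10% of all genes). The median was 0.04, and −0.01 on replicate 1 alone. Orm1, alpha-1-acid glycoprotein, read 10.80, 8.16 and 9.97 at 7 days, against 16.25, 12.71 and 14.61 at E21 (−4.88 ± 0.73, adjusted p = 0.000183). A2m, alpha-2-macroglobulin, a fetal protein in the rat, left the upper limit of the scale: it read 18.52, 18.82 and 19.10 in the 7 day livers, against 19.93 in all 3 fetal livers, and so fell by at least 1.11. Hamp, hepcidin, the hormone that blocks iron uptake, read 15.44, 13.62 and 16.59 at 7 days, against 18.37, 18.61 and 17.67 at E21 (−3.002 ± 0.50, adjusted p = 0.000424). Lbp, which binds bacterial lipopolysaccharide, rose by 1.93, and Itih4, an inter-alpha-inhibitor heavy chain, by 1.56.

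To show the stretches next to the start sites of genes of this group, the upstream bases of Serpina4 and C4bpa are given, the 2 members with the largest rise that hold a GTTAAT, the core letters of the site bound by hepatocyte nuclear factor 1. They come from RefSeq for build GRCr8, run 5′ to 3′ along the gene's strand and cover the 150 bases before the start, with GTTAAT in capitals. Serpina4, kallistatin, lies at chr6:128764632-128764781, plus strand, and C4bpa, a complement inhibitor, at chr13:44663472-44663621, minus strand.
Serpina4: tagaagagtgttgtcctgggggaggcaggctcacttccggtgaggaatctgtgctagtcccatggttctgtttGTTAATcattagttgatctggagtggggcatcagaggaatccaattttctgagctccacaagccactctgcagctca
C4bpa: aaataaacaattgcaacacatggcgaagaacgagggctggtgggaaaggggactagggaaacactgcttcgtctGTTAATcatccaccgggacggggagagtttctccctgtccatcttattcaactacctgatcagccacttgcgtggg
Serpina4 read 16.90, 17.03 and 16.77 at 7 days, against 14.46, 14.22 and 14.80 at E21 (2.40 ± 0.23, adjusted p = 3.88e-06). C4bpa read 16.27, 15.86 and 16.84 at 7 days, against 14.63, 13.72 and 14.18 at E21 (2.15 ± 0.27, adjusted p = 3.68e-05). GTTAAT was searched on both strands in the 250 bases before the start. It was found in 8 of the 24 risen plasma protein genes with a promoter in the RefSeq table (33.3%). Of 16 risen genes of the drug P450 list 1 held it (6.25%), as did 6.46% of all 27457 promoters. A match describes letters and does not show binding. Here and in the promoter counts below, list members that were not called were not counted. The shares therefore cannot tie a match to the change in level rather than to membership of the list.

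Of 22 genes of iron and copper handling, 4 were higher and 4 lower (18.2% each way, against 12.8% and 10% of all genes). The median was −0.01, and −0.06 on replicate 1 alone. Lower ones were down to 2 without E21 replicate 1. Tfrc, the transferrin receptor, which erythroid cells carry at high density, read 12.13, 12.62 and 11.29 at 7 days, against 14.86, 14.21 and 14.16 at E21 (−2.40 ± 0.35, adjusted p = 0.000137), and the heme scavenger Hpx rose by 0.58. Of 26 antioxidant genes, 6 were higher and 4 lower (23.1% and 15.4%, against 12.8% and 10% of all genes). The median was 0.14, and 0.27 on replicate 1 alone. Lower ones were down to 2 without 7 day replicate 2 or E21 replicate 2. The glutathione-making enzymes Gclc, at 13.56, 13.46 and 12.76 at 7 days, against 11.09, 10.71 and 11.19 at E21 (2.27 ± 0.26, adjusted p = 1.55e-05), and Gss, by 1.59, were higher, and Prdx2, a peroxiredoxin of red cells, fell by 1.93. In retinoid and vitamin metabolism 8 of 19 genes were higher and none lower (3 and 0 on replicate 1 alone), the higher ones numbering 4 without 7 day replicate 1 or 2 or E21 replicate 1 or 2. Rarres2, chemerin, read 13.66, 13.73 and 13.75 at 7 days, against 10.90, 10.03 and 10.70 at E21 (3.17 ± 0.26, adjusted p = 1.02e-06).

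Of 22 pericentral and Wnt target genes, 12 were higher and 1 lower (6 and 0 on replicate 1 alone, median 0.76), and the medians on 7 day replicates 1, 2 and 3 were 0.67, 0.70 and 0.67. Lect2, a secreted protein and Wnt target, read 15.84, 15.86 and 15.54 at 7 days, against 11.74, 10.48 and 13.22 at E21 (3.93 ± 0.55, adjusted p = 0.000113). Axin2, a feedback inhibitor of Wnt signalling, read 8.11, 8.29 and 8.84 at 7 days, against 5.96, 6.61 and 7.30 at E21 (1.79 ± 0.32, adjusted p = 0.000806, 1 E21 array dim; it rose by at least 1.74 with that reading at the background limit). Glul, glutamine synthetase, the classical marker of the last pericentral cells, read 16.90, 17.18 and 17.11 at 7 days, against 16.64, 17.12 and 17.42 at E21 and did not pass (0.004 ± 0.25, adjusted p = 0.995), and the ammonium carrier Rhbg fell by 1.32. Of 20 periportal genes, 2 were higher and 3 lower (10% and 15%, near the 12.8% and 10% of all genes). The median was −0.01, and 0.25 on replicate 1 alone. Higher ones numbered 4 without E21 replicate 1, and lower ones 1 without 7 day replicate 2 or 3 or E21 replicate 1. Cdh1, E-cadherin, was one of the higher ones, at 14.15, 14.42 and 13.83 at 7 days, against 12.20, 12.13 and 12.55 at E21 (1.84 ± 0.33, adjusted p = 0.000774).

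Of 33 fetal and imprinted growth genes, 5 were higher and 10 lower (1 and 6 on replicate 1 alone, median −0.17), a share of 15.2% higher, near the 12.8% of all genes, and 30.3% lower, against 10%, with higher ones down to 2 without E21 replicate 1 and 3 without 7 day replicate 2 or 3 or E21 replicate 2. Dlk1, an imprinted membrane protein of hepatoblasts, read 6.43, 7.86 and 7.58 at 7 days, against 11.03, 13.05 and 12.13 at E21 (−4.78 ± 0.50, adjusted p = 7.86e-06). Cdkn1c, an imprinted brake on the cell cycle, read 8.07, 8.14 and 8.25 at 7 days, against 10.88, 13.07 and 12.13 at E21 (−3.88 ± 0.56, adjusted p = 0.000138). Grb10, an imprinted inhibitor of insulin signalling, read 13.07, 12.86 and 14.13 at 7 days, against 16.49, 17.09 and 17.20 at E21 (−3.57 ± 0.39, adjusted p = 1.28e-05). Igf2, the fetal growth factor, did not pass, at 17.95, 17.96 and 18.005 at 7 days, against 17.96, 18.02 and 17.999 at E21 (−0.02 ± 0.15, adjusted p = 0.95). Spink1, a trypsin inhibitor on this list, which acinar cells also make, was dim at E21 and read 6.58, 8.42 and 11.40 in the 7 day livers, the last being the one with pancreas transcripts. Averaged over all 7 day arrays it rose by at least 2.70, a bound that takes in the reading of 11.40. From the other 7 day readings, 6.58 and 8.42, the bound would be smaller. Spink1 passed without the array with pancreas transcripts too, and the part of pancreas in the bound was not tested. Slc38a4, an imprinted amino acid carrier, was higher as well, at 18.04, 17.82 and 17.73 at 7 days, against 16.81, 16.05 and 15.76 at E21 (1.66 ± 0.30, adjusted p = 0.000907).

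Of 25 genes of the growth hormone and insulin-like growth factor axis, 7 were higher and 3 lower (5 and 1 on replicate 1 alone). Igf1, the postnatal growth factor, read 15.89, 16.46 and 16.09 at 7 days, against 13.63, 13.32 and 13.86 at E21 (2.54 ± 0.42, adjusted p = 0.000459). Igfals, which holds the factor in blood, read 12.08, 13.63 and 12.43 at 7 days, against 8.47, 8.60 and 9.62 at E21 (3.82 ± 0.65, adjusted p = 0.000518). The growth hormone receptor Ghr read 14.22, 14.82 and 13.81 at 7 days, against 11.98, 12.27 and 12.86 at E21 (1.92 ± 0.27, adjusted p = 0.000116). Igfbp4, a binding protein, spread over the fetal livers, at 16.59, 16.25 and 16.73 at 7 days, against 15.09, 10.28 and 12.71 at E21 (3.83 ± 0.74, adjusted p = 0.00139). Irs2, an insulin receptor substrate, was lower, at 9.23, 8.90 and 8.92 at 7 days, against 12.11, 11.81 and 11.04 at E21 (−2.63 ± 0.56, adjusted p = 0.00282), and the thyroid hormone receptor Thrb fell by 1.31 (adjusted p = 0.000201). Igfbp1, another binding protein, read 18.11, 18.02 and 18.60 at 7 days, against 19.71, 19.36 and 19.24 at E21 (−1.19 ± 0.33, adjusted p = 0.015), and did not pass without 7 day replicate 2 or E21 replicate 1 (adjusted p 0.0623 to 0.064).

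Most proliferation genes on the lists were lower at 7 days. Of 62 mitosis genes 1 was higher and 38 lower (1 and 9 on replicate 1 alone, median −0.92), and in 49 of them all 3 arrays of 7 days lay below all 3 of E21 (17% of all genes). Of 46 DNA replication genes 2 were higher and 27 lower (1 and 6 on replicate 1 alone, median −0.67). The higher replication genes numbered 0 without 7 day replicate 1 or E21 replicate 2 and 1 without E21 replicate 3. Mki67, the proliferation antigen Ki-67, read 13.84, 13.05 and 13.73 at 7 days, against 16.02, 16.18 and 15.54 at E21 (−2.37 ± 0.28, adjusted p = 2.2e-05). Cdc25b, a phosphatase that starts mitosis, read 9.03, 8.34 and 8.16 at 7 days, against 11.45, 12.33 and 11.14 at E21 (−3.13 ± 0.34, adjusted p = 1.06e-05). E2f2, a transcription factor of replication genes that is abundant in erythroid precursors, read 7.05, 6.30 and 6.44 at 7 days, against 10.04, 9.79 and 9.08 at E21 (−3.04 ± 0.33, adjusted p = 1.08e-05).

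Top2a, DNA topoisomerase II alpha, was lower too (−1.38 ± 0.28, adjusted p = 0.00194). Cdk1, the kinase of mitotic entry, read 8.76, 8.11 and 8.45 at 7 days, against 8.95, 8.76 and 8.73 at E21 and did not pass (adjusted p = 0.198). The mitosis member that was higher was Cenpm, a centromere protein (1.06 ± 0.16, adjusted p = 0.000242). The erythroid list, whose cells divide in the fetal liver, was lower on the same arrays, by a median of −2.52. Its part in the proliferation counts was not tested. Of 34 ribosome biogenesis genes 14 were lower and none higher (0 and 1 on replicate 1 alone), the number lower being 4 without E21 replicate 1 and 5 without 7 day replicate 2. Npm1, nucleophosmin, read 13.96, 13.74 and 14.17 at 7 days, against 15.97, 15.39 and 15.26 at E21 (−1.59 ± 0.22, adjusted p = 9.15e-05).

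Promoters of mitosis genes are known for CCAAT boxes, bound by NF-Y, and for a cell cycle element with the letters TTTGAA. The stretches of Mki67 and Kif23, a kinesin of cell division, are shown because they are the members with the largest falls that hold both. They come from RefSeq build GRCr8, 5′ to 3′ along the gene's strand, 150 bases each, with CCAAT and TTTGAA on either strand in capitals. The Mki67 stretch runs from 209 to 60 bases before the start (chr1:199952653-199952802, minus strand) and the Kif23 stretch over the last 150 bases (chr8:71320585-71320734, minus strand).
Mki67: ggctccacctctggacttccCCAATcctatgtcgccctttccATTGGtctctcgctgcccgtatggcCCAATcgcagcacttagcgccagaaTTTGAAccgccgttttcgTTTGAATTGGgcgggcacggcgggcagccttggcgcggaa
Kif23: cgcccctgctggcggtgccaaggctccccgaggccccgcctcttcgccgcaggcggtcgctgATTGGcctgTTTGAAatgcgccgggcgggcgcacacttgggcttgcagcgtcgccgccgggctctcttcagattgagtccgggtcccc
In Mki67, CCAAT matches begin 189, 167, 142 and 94 bases before the start and TTTGAA matches 117 and 99 bases before it, the last of which overlaps a CCAAT box on the other strand by 1 base. In Kif23 the box begins 88 and the element 79 bases before the start. Kif23 read 8.03, 7.39 and 8.02 at 7 days, against 9.64, 10.06 and 9.32 at E21 (−1.86 ± 0.26, adjusted p = 9.15e-05). Over the 250 bases before the start, CCAAT was present in 27 of 34 fallen mitosis genes with a promoter in the table (79.4%), against 34.3% of 27457 promoters, and TTTGAA in 17 of 34 (50%), against 16.0%. Mitosis genes that were not called were not counted.

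A list of 19 genes held hepatocyte transcription factors and Afp, whose change could not be measured. Of the 19, 8 were higher and 0 lower (median 0.64, and 0.67 on replicate 1 alone). In 13 every 7 day array lay above every E21 array (20% of all genes). The higher ones numbered 5 without 7 day replicate 1 or E21 replicate 1. Foxa3, a forkhead factor, read 12.99, 12.34 and 12.40 at 7 days, against 10.13, 10.80 and 10.95 at E21 (1.95 ± 0.30, adjusted p = 0.000247). Gata4 read 8.17, 8.19 and 8.24 at 7 days, against 6.68, 7.04 and 7.20 at E21 (1.23 ± 0.17, adjusted p = 9.5e-05). Hnf4a, the central hepatocyte factor, read 14.07, 13.66 and 14.10 at 7 days, against 12.97, 12.68 and 13.14 at E21 (1.01 ± 0.26, adjusted p = 0.0113). Hnf4a did not pass without E21 replicate 2 (adjusted p of 0.0532). Cebpa was higher on each 7 day array but did not pass (0.52 ± 0.25, adjusted p = 0.158). Of 34 metabolic nuclear receptors and coactivators, 13 were higher and 2 lower (7 and 1 on replicate 1 alone). Nr2f2, COUP-TFII, rose by 1.48 and the retinoic acid receptor Rara by 1.27, whereas the drug sensor Nr1i3 (CAR) and the bile acid sensor Nr1h4 (FXR) did not pass (adjusted p = 0.644 and adjusted p = 0.161).

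Of 19 clock genes, 8 were higher and 1 lower (5 and 0 on replicate 1 alone), with higher ones down to 5 without 7 day replicate 1 or 2 or E21 replicate 2 and lower ones at 2 without 7 day replicate 3. Per3, a period gene, read 8.94, 9.03 and 7.91 at 7 days, against 6.83, 6.42 and 6.38 at E21 (2.08 ± 0.28, adjusted p = 7.98e-05), Nr1d2, a repressor of the clock, rose by 2.13, and Dbp, a clock output factor dim in all fetal livers, by at least 1.56, while Per1 fell by 1.71 (adjusted p = 0.00218). The hour at which livers were taken is not given in the sources used here. Of 31 immediate early genes, 6 were higher and 2 lower (19.4% and 6.45%, against 12.8% and 10% of all genes). The median was 0.07, and 0.03 on replicate 1 alone. Higher ones were down to 2 without 7 day replicate 1 and 3 without E21 replicate 2. Lower ones were down to 1 without 7 day replicate 2 or 3 or E21 replicate 1 or 2. Dusp6, a phosphatase of the ERK pathway, read 10.86, 10.74 and 10.36 at 7 days, against 7.37, 7.395 and 8.57 at E21 (2.88 ± 0.37, adjusted p = 4.55e-05), and Myc fell by 1.95 (adjusted p = 0.00459). Of 25 genes of the ATF4 and unfolded protein response, 3 were higher and 3 lower (0 and 1 on replicate 1 alone), near the background. Higher ones numbered 1 without 7 day replicate 3 or E21 replicate 1 and 5 without E21 replicate 3, and lower ones 1 without 7 day replicate 2 or E21 replicate 2.

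The platelet, erythroid and heme lists had the highest shares of lower genes among the 57 lists. Of 46 erythroid genes 43 were lower and none higher (0 and 39 on replicate 1 alone, median −2.52), and 43, 42 and 42 were lower without 7 day replicate 1, 2 or 3. Slc4a1, the anion exchanger of the red cell membrane, read 13.30, 11.75 and 12.11 at 7 days, against 16.88, 17.29 and 16.23 at E21 (−4.41 ± 0.37, adjusted p = 1.1e-06). Gata1, the master factor of red cell and platelet formation, read 7.11, 5.76 and 6.46 at 7 days, against 11.39, 11.44 and 10.80 at E21 (−4.77 ± 0.39, adjusted p = 1.03e-06, 1 7 day array dim; it fell by at least 4.65 with that reading at the background limit). Car1, carbonic anhydrase 1, read 12.27, 9.60 and 10.43 at 7 days, against 16.27, 15.90 and 15.70 at E21, Ermap, a red cell adhesion protein, 10.07, 8.37 and 8.85 at 7 days, against 14.53, 14.90 and 13.85 at E21, and Ahsp, the chaperone of alpha globin, 10.92, 9.08 and 10.22 at 7 days, against 14.96, 15.48 and 14.67 at E21. The 7 day livers were far below the fetal ones in each, with replicate 1 the highest of the 3. The adult beta globin probe set Hbb read 13.45, 13.42 and 12.85 at 7 days, against 16.59, 16.77 and 16.53 at E21 (−3.40 ± 0.25, adjusted p = 4.27e-07), and embryonic zeta globin Hbz was dim on all 6 arrays. Globin genes are close copies of each other and their probe sets may share signal.

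Of 12 heme synthesis genes 10 were lower and none higher (0 and 6 on replicate 1 alone, median −1.91). Alas2, the erythroid first enzyme, read 12.42, 11.94 and 11.10 at 7 days, against 15.07, 15.83 and 14.92 at E21 (−3.45 ± 0.30, adjusted p = 1.66e-06). Slc25a37, mitoferrin 1, read 7.29, 6.37 and 7.09 at 7 days, against 11.42, 11.30 and 10.94 at E21 (−4.30 ± 0.37, adjusted p = 1.46e-06). The upstream stretches of Rhd, the Rhesus blood group protein, and Sptb, the beta spectrin of the red cell skeleton, are shown as the 2 erythroid genes with the largest falls that hold an AGATAA, a form of the site that GATA factors bind. They are from RefSeq build GRCr8, the last 150 bases before the start, 5′ to 3′ along the gene's strand, with AGATAA in capitals; Rhd is at chr5:152371050-152371199, plus strand and Sptb at chr6:101170279-101170428, minus strand.
Rhd: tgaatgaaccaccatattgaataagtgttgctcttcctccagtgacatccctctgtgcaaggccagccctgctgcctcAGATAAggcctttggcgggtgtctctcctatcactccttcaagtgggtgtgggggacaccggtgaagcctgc
Sptb: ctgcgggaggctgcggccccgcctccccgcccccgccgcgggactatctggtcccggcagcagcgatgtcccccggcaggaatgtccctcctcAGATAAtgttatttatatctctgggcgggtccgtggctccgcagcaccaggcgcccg
Rhd read 9.61, 8.31 and 8.65 at 7 days, against 13.85, 13.88 and 13.21 at E21 (−4.79 ± 0.32, adjusted p = 2.87e-07). Sptb read 7.72, 6.99 and 7.25 at 7 days, against 12.14, 12.20 and 11.09 at E21 (−4.49 ± 0.33, adjusted p = 4.6e-07). AGATAA, on either strand of the 250 bases before the start, was present in 8 of 32 fallen erythroid genes with a promoter in the table (25%) and in 10.05% of 27457 promoters. Erythroid genes that were not called were not counted.

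Of 19 megakaryocyte and platelet genes 18 were lower and none higher (0 and 15 on replicate 1 alone, median −2.23). The platelet chemokines Ppbp and Pf4 read 6.37, 6.30 and 6.47 at 7 days, against 13.09, 12.88 and 13.04 at E21, and 8.56, 7.63 and 8.65 at 7 days, against 14.37, 13.89 and 13.54 at E21. The platelet glycoproteins Gp9 and Gp5 were dim on every 7 day array. Gp9 fell by at least 4.79 and Gp5 fell by at least 4.22. Of 31 genes of neutrophil and myeloid precursor granules 19 were lower and none higher (0 and 14 on replicate 1 alone, median −1.55). Myeloperoxidase, Mpo, read 10.66, 8.94 and 10.17 at 7 days, against 15.17, 15.66 and 14.66 at E21 (−5.24 ± 0.39, adjusted p = 4.8e-07). Neutrophil elastase, Elane, read 8.59, 7.52 and 7.76 at 7 days, against 12.23, 13.41 and 11.47 at E21 (−4.41 ± 0.43, adjusted p = 4.05e-06), and cathepsin G, Ctsg, fell by at least 3.84. Among 15 mast cell and basophil genes 1 was higher and 6 lower (0 and 4 on replicate 1 alone), and the higher one was not called without 7 day replicate 3 or E21 replicate 1. Apart from Hdc, the lower ones included the granule protease Mcpt8, at 6.89, 6.45 and 6.72 at 7 days, against 10.32, 9.89 and 9.24 at E21 (−3.13 ± 0.57, adjusted p = 0.000899), and 7 of the 15 were dim on all 6 arrays.

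Lists of endothelium, macrophages and stellate cells held more genes that were higher than lower. Of 25 genes of sinusoidal endothelium, the cells that line liver capillaries, 17 were higher and 1 lower (11 and 1 on replicate 1 alone, median 1.19). Fcgr2b, their Fc receptor, read 13.62, 13.72 and 13.87 at 7 days, against 11.32, 10.53 and 11.33 at E21 (2.68 ± 0.32, adjusted p = 2.7e-05). Dnase1l3, a secreted nuclease, read 11.35, 12.23 and 12.51 at 7 days, against 9.58, 9.54 and 9.58 at E21 (2.46 ± 0.37, adjusted p = 0.000199). The scavenger receptor Stab2 read 12.82, 12.91 and 13.06 at 7 days, against 11.97, 11.17 and 11.81 at E21 (1.28 ± 0.22, adjusted p = 0.000491). Bmp2, which signals to hepatocytes in iron control, rose by 2.21 (adjusted p = 6.41e-06). Vwf, von Willebrand factor, shared with platelets, was the lower member (−1.23 ± 0.22, adjusted p = 0.000829).

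Of 26 genes of Kupffer cells, the liver's macrophages, 14 were higher and 1 lower (8 and 1 on replicate 1 alone, median 0.85), and 14 also without 7 day replicate 1, 2 or 3. Cd5l, a secreted macrophage protein, read 11.79, 13.25 and 12.16 at 7 days, against 7.89, 7.399 and 8.002 at E21 (4.64 ± 0.61, adjusted p = 6.1e-05). Vsig4, a complement receptor, read 11.04, 12.34 and 12.11 at 7 days, against 7.78, 8.02 and 8.11 at E21 (3.86 ± 0.39, adjusted p = 5.7e-06). The rodent Kupffer lectin Clec4f read 11.85, 12.21 and 12.50 at 7 days, against 9.53, 10.19 and 10.93 at E21 (1.97 ± 0.39, adjusted p = 0.00189). Lyz2, a lysozyme shared with granulocytes, was lower (−2.40 ± 0.30, adjusted p = 4.07e-05). Of 21 genes of MHC class II and dendritic cells, 6 were higher and 2 lower (2 and 1 on replicate 1 alone), 13 being dim on all 6 arrays, and lower ones numbered 1 without 7 day replicate 1 or 3 or E21 replicate 2. RT1-Da, a class II chain, read 7.58, 11.52 and 11.68 at 7 days, against 6.51, 6.14 and 6.49 at E21 (3.88 ± 0.73, adjusted p = 0.00115). Cd74, its chaperone, read 7.85, 10.66 and 10.79 at 7 days, against 7.12, 6.86 and 6.91 at E21 (2.81 ± 0.53, adjusted p = 0.00118). The 7 day replicate 1 liver was the low one for both, and both passed without it as well as without either other.

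Of 33 genes of stellate and mesenchymal cells, the vitamin A storing and fibre forming cells, 18 were higher and 0 lower (11 and 0 on replicate 1 alone, median 1.002). Their median over the E21 mean was 0.41, 1.06 and 1.26 on 7 day replicates 1, 2 and 3, highest on the arrays with muscle and pancreas transcripts. The part of those tissues in the larger count was not tested. Pdgfrb, the platelet-derived growth factor receptor of these cells, read 10.35, 11.05 and 11.39 at 7 days, against 8.27, 8.06 and 8.30 at E21 (2.72 ± 0.23, adjusted p = 1.18e-06). Ecm1, a matrix protein, read 11.46, 12.48 and 11.32 at 7 days, against 9.78, 9.83 and 9.72 at E21 (1.97 ± 0.31, adjusted p = 0.000309). Elastin, Eln, was highest on replicate 3, at 10.98, 10.83 and 12.89 at 7 days, against 9.61, 8.25 and 8.63 at E21 (2.74 ± 0.50, adjusted p = 0.000935). Col1a1, a chain of type I collagen, was also highest there, at 9.82, 10.69 and 11.62 at 7 days, against 10.27, 9.65 and 9.18 at E21, and did not pass (adjusted p = 0.237). Of 18 bile duct genes 4 were higher and 3 lower (22.2% and 16.7%, against 12.8% and 10% of all genes). The median was 0.19, and 0.13 on replicate 1 alone. Higher ones were down to 2 without 7 day replicate 2 or 3 or E21 replicate 1. Lower ones were down to 1 without 7 day replicate 2 or E21 replicate 2. The water channel Aqp1, which red cells and endothelium also carry, fell by 3.05, and Krt19, a duct keratin, did not pass (adjusted p = 0.645). None of 9 mesothelial genes passed.

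Lymphocyte lists held mostly dim genes. Of 27 genes of T and natural killer cells 8 were higher and 1 lower (2 and 1 on replicate 1 alone), with 20 dim on all 6 arrays. Cd4, which rat macrophages carry too, read 12.20, 13.34 and 12.93 at 7 days, against 9.75, 9.86 and 10.42 at E21 (2.81 ± 0.36, adjusted p = 4.42e-05), the granule protease Gzma rose by at least 1.40 and the chemokine Ccl5 by at least 1.74. Nkg7, a granule membrane protein, was lower (−3.13 ± 0.38, adjusted p = 2.87e-05). Of 16 B cell genes 2 were higher and 2 lower (12.5% each, near the 12.8% and 10% of all genes). The lower ones numbered 0 without 7 day replicate 1 or 3 or E21 replicate 2 and 1 without E21 replicate 3. The lectin Cd22 was higher, at 7.35, 8.13 and 7.66 at 7 days, against 6.51, 6.50 and 6.74 at E21 (1.13 ± 0.17, adjusted p = 0.000253).

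**Figure D4:**
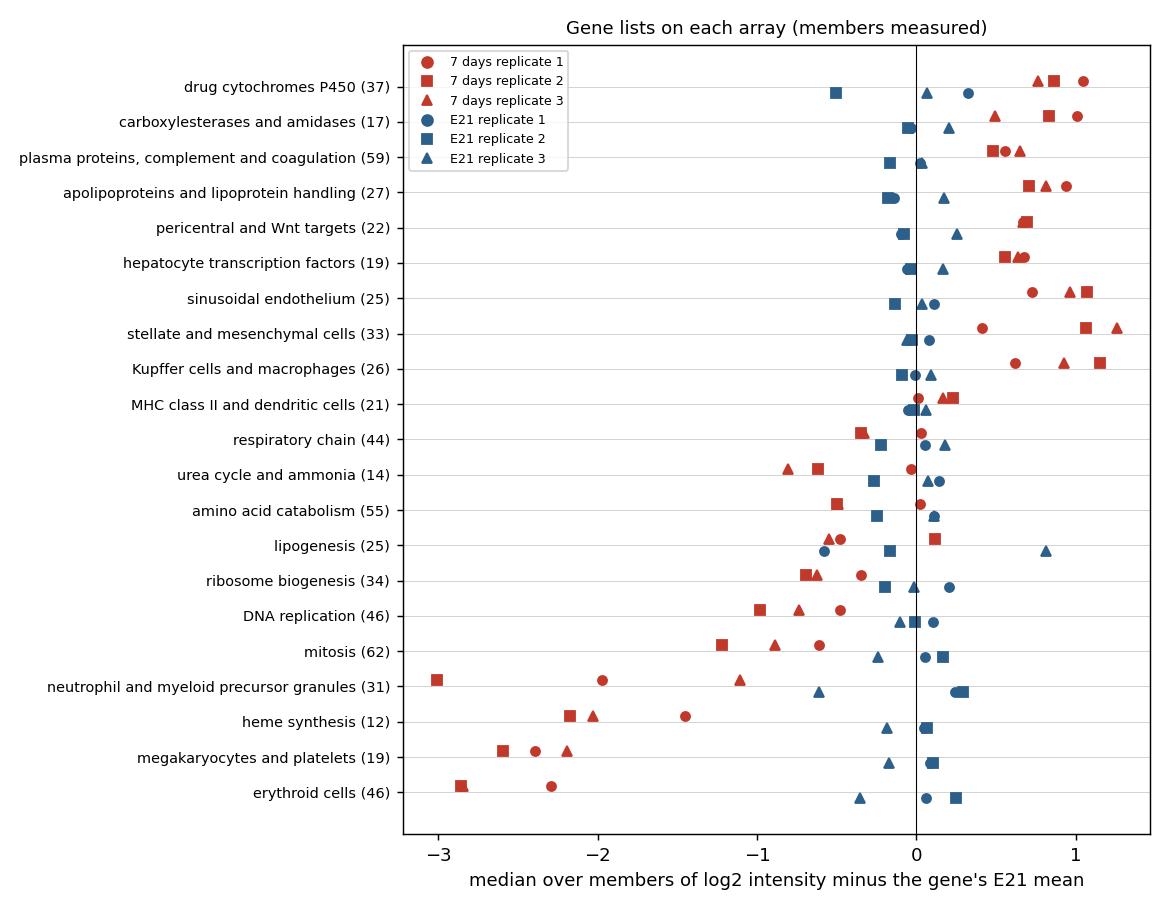
Median over the members of a gene list of the log2 intensity minus the gene's E21 mean (horizontal axis), for each 7 day array (red, above) and each E21 array (blue, below); marker shape gives the replicate and the number of members stands in brackets. Erythroid, heme, megakaryocyte and granule lists lie between −3.01 and −1.10 on the 7 day arrays. Replicate 1 lies nearest to E21 for urea cycle, amino acid, respiratory chain, ribosome biogenesis, proliferation, erythroid and heme lists. It also does so for stellate, Kupffer, endothelium and MHC class II lists.

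Measured against livers of 1 day, which share the 7 day arrays with the comparison above, 3441 genes (18.2%) were called at 7 days, 1543 higher (8.15%) and 1898 lower (10%). Without 7 day replicate 2 these counts were 1050 and 1226. The proliferation and blood lists were lower against this age too: 59 of 62 mitosis genes, 37 of 46 DNA replication genes and 39 of 46 erythroid genes, with none higher. Higher than at 1 day were 33 of 59 plasma protein genes, 23 of 33 stellate genes and 12 of 21 cholesterol genes, the last of which had moved little against E21. List counts against 1 day are not given without single arrays. Over the E21 mean, the stellate median was 0.41, 1.06 and 1.26 on 7 day replicates 1, 2 and 3 and −0.09 at 1 day. The cholesterol median was −0.72, 0.29 and 0.26 on these arrays and −1.77 at 1 day. The drug P450 list gave 4 higher and 2 lower of 37, and PPAR alpha targets 0 higher and 5 lower of 17. Amino acid breakdown gave 11 higher and 0 lower of 55.

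Single genes followed different courses between 1 and 7 days. Cyp1a2 averaged 15.89 at 7 days and 8.84 at 1 day, a difference of 7.05 (adjusted p = 4.97e-05), and Ces2e 13.46 at 7 days and 6.17 at 1 day (7.28, adjusted p = 2.71e-08). Igf1 was higher than at 1 day by 1.92 and Avpr1a by 3.71 (adjusted p = 0.005 and adjusted p = 0.000489). For Inhbe the 7 day level did not differ from 1 day past the threshold, at 14.05, 14.44 and 16.48 in the 7 day livers and 17.04, 14.43 and 18.84 at 1 day (adjusted p = 0.27). Hdc averaged 6.18 at 7 days and 7.66 at 1 day (adjusted p = 0.269), Scd2 11.13 at 7 days and 10.52 at 1 day (adjusted p = 0.584), and Lpin1 9.26 at 7 days and 9.89 at 1 day (adjusted p = 0.393), and none of them passed between these ages. Acot1, an acyl-CoA thioesterase and PPAR alpha target, averaged 8.78 at 7 days, 12.32 at 1 day and 6.71 at E21, below 1 day (adjusted p = 0.000103) and above E21 (adjusted p = 0.00467).

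**Figure D5:**
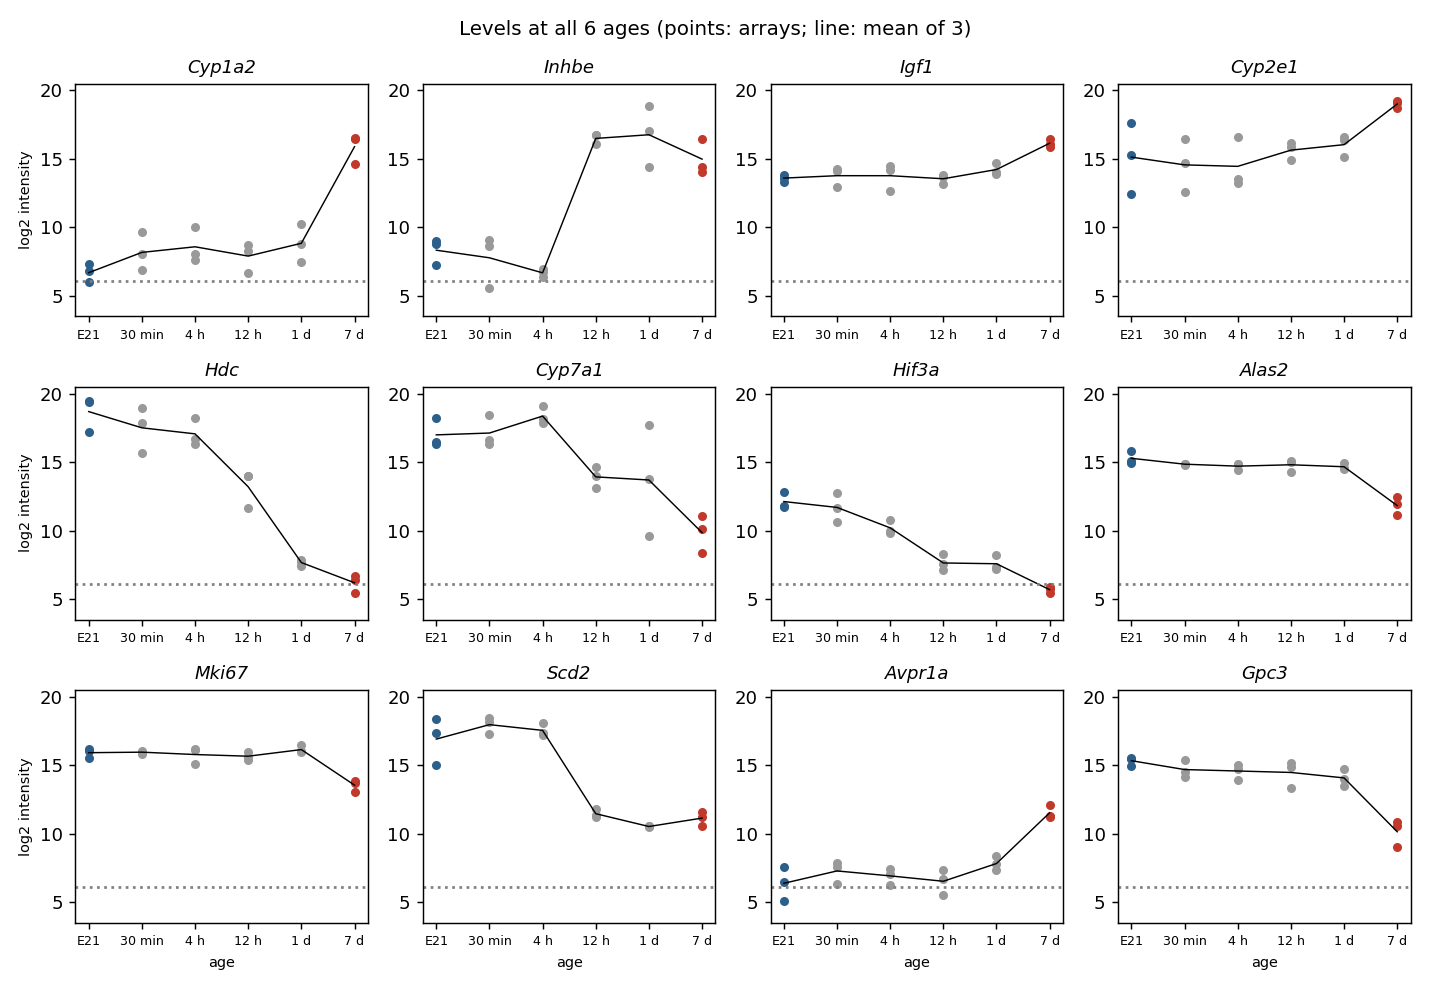
Log2 intensity (vertical axis) of 12 genes at all 6 ages (horizontal axis, E21 first); points are arrays, E21 in blue, 7 days in red and the ages between in grey, the line joins the means of 3 and the dotted line is the background limit of 6.10. Cyp1a2, Igf1 and Avpr1a stand highest at 7 days, Inhbe is already high at 12 h, Hdc and Scd2 are already low at 1 day, and Alas2, Mki67 and Gpc3 are lower at 7 days than at any other age.

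The 5 largest changes in each direction among genes that lost their call when a 7 day array was left out are given here. On the higher side, besides Cyp2e1, C5 and Angptl4, they were Fgl1 and G0s2. Fgl1, a hepatocyte-secreted fibrinogen relative, read 16.80, 15.70 and 17.14 at 7 days, against 15.82, 11.74 and 14.13 at E21 (2.65 ± 0.71, adjusted p = 0.0136). G0s2, an inhibitor of fat breakdown, read 11.16, 9.71 and 11.62 at 7 days, against 8.25, 8.21 and 8.93 at E21 (2.36 ± 0.68, adjusted p = 0.02). Fgl1 did not pass without 7 day replicate 3 (adjusted p of 0.0566), and G0s2 did not pass without 7 day replicate 1 or 3 or E21 replicate 1 or 2 (adjusted p 0.0634 to 0.0882). On the lower side, besides G6pc1, they were Got1, the cytosolic aspartate aminotransferase, Hal, histidine ammonia lyase, Acsm3, a medium-chain acyl-CoA synthetase, and Ppp1r3g, a glycogen-targeting subunit. Got1 read 13.93, 12.04 and 12.20 at 7 days, against 17.08, 13.98 and 14.71 at E21 (−2.54 ± 0.76, adjusted p = 0.025), and did not pass without 7 day replicate 2 or 3 or E21 replicate 1 (adjusted p 0.0882 to 0.134). Hal read 12.03, 10.18 and 9.68 at 7 days, against 14.57, 12.38 and 12.37 at E21 (−2.48 ± 0.71, adjusted p = 0.0196), and did not pass without 7 day replicate 2 or 3 or E21 replicate 1 (adjusted p 0.0756 to 0.106). E21 replicate 1 was the highest fetal array for both. Acsm3 read 12.79, 11.11 and 10.68 at 7 days, against 14.03, 13.46 and 14.50 at E21 (−2.47 ± 0.64, adjusted p = 0.0112), and did not pass without 7 day replicate 3 (adjusted p of 0.0566). Ppp1r3g was dim in every 7 day liver and read 9.89, 8.04 and 6.99 at E21 (adjusted p = 0.0424); it fell by at least 2.21 and did not pass without 7 day replicate 1, 2 or 3 or E21 replicate 1 or 2 (adjusted p 0.0788 to 0.181).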

How the data were processed

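Total liver RNA was read on Affymetrix Rat Transcriptome 1.0 arrays after WT Plus labelling. The deposited values were intensities on a linear scale, 1 per transcript cluster and array, normalized by the authors. RMA and Affymetrix Expression Console 1.0 are named in the submitters' processing notes, and the annotation release and filters are not given in the sources used here. Deposited intensities ran from 4.24 to 999969, with array medians of 61.9 to 65.5. On each array 272 to 328 clusters exceeded 65535, the limit of a 16-bit scan, so the scale was changed after scanning in a way the sources do not state, and log2 differences rest on the scale as deposited. Values at the upper limit were taken as those within 0.1 log2 of the highest.

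The deposited intensities were taken to log2. Of 24753 clusters 19837 carried 1 gene symbol, 420 several and 4496 none in the platform annotation, and only the first kind was used. The cluster with the highest mean over 18 arrays stood for a gene, which gave 18926 genes, 800 of them with more than 1 cluster. Array medians varied little, and correlations between arrays were 0.989 to 0.992 within 7 days, 0.989 to 0.992 within E21 and 0.954 to 0.972 between these ages. Differences were tested two-sided with limma 3.58.1 in R 4.3.3 (lmFit with a mean per age over all 18 arrays, eBayes, Benjamini-Hochberg over 18926 genes, threshold 0.05), after the code had been tested on simulated data. With 3 arrays per age the number of arrays limits the precision, and p-values measure the spread between dams. Array replicate numbers were not taken as pairs, since no label ties the numbers together. Same-numbered deviations correlated at 0.14, 0.06 and −0.08 between 7 days and E21 and at −0.09, 0.11 and 0.11 between 7 days and 1 day. Unlike-numbered ones correlated at −0.22 to 0.15. With 3 arrays per age these values cannot show whether a number marks a shared batch or day.

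The genes named were the 15 largest differences each way whose ages did not overlap and whose call held without each 7 day array, up to 4 members each way per list among those called, a set of liver textbook genes, the 6 largest outside the lists each way, and the 5 largest each way that lost the call without a 7 day array. The comparison, the genes and the 57 lists (1518 of 1659 entries matched, 20 by synonym) were chosen with earlier results of these data known. List entries without a match were not analysed here. Promoters came from RefSeq for GRCr8, matched by symbol. Alternatives were the 6 arrays alone, a trended and robust prior, array weights, quantile and median scaling, a filter on dim genes, averaged clusters, leaving out genes at the upper limit, a test against 1.5-fold, a replicate block, and leaving out arrays.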

Additional observations from a re-analysis of the deposited data

How the results depend on the processing

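Between 7 days and E21, 4314 genes passed (2422 higher, 1892 lower), and counts stayed within 1.5 times of these with the 6 arrays alone, a trended prior, array weights, quantile or median scaling, a filter on dim genes, averaged clusters and without genes at the upper limit (3927 to 4818). A test against a 1.5-fold change passed 876 genes (455 higher, 421 lower), and leaving out both 7 day arrays with pancreas or muscle transcripts left 1807 (1065 higher, 742 lower), with 1 array at 7 days that is assumed to vary like the other ages. Leaving out 1 array gave 3228 to 3871 genes in all, 1894 to 2176 higher and 1293 to 1695 lower, the fewest in all and lower without 7 day replicate 2. With the replicate number as a block, in 6 arrays, 3222 genes passed (1779 higher, 1443 lower).

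Between 7 days and 1 day, 3441 passed (1543 higher, 1898 lower). The 1.5-fold test passed 566 (188 higher, 378 lower), the 7 day array without other tissues alone 1006 (455 higher, 551 lower), and the replicate block 2205 (929 higher, 1276 lower). Leaving out 1 array gave 2276 to 3120 in all, 1050 to 1427 higher and 1226 to 1881 lower, again fewest without 7 day replicate 2. The cause was not tested. Of the alternative values for named genes, 4418 kept direction and side of the threshold, 491 kept direction and lost the call, 10 gained it and none turned direction. Of the counts and medians of lists, 2470 stayed within 1.5 times or the spread between arrays and 404 did not. Genes dim at both ages, and genes at the upper limit, carry no measured difference.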

Other observations

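Further genes of sugar and amino acid use differed between the ages. Ldha, a subunit of lactate dehydrogenase, read 16.31, 16.43 and 16.49 at 7 days, against 14.44, 14.67 and 15.21 at E21 (1.64 ± 0.25, adjusted p = 0.000197). Mpc2, a subunit of the mitochondrial pyruvate carrier, read 11.48, 11.24 and 11.46 at 7 days, against 9.72, 9.91 and 10.17 at E21 (1.46 ± 0.19, adjusted p = 5.23e-05). Pfkfb1, the liver enzyme that sets the glycolytic signal fructose bisphosphate, read 10.17, 9.55 and 9.12 at 7 days, against 12.69, 12.81 and 13.30 at E21 (−3.32 ± 0.38, adjusted p = 1.75e-05). All 3 genes separated the ages without overlap. Slc7a5, a carrier of large amino acids, was lower at 11.43, 10.77 and 11.45 at 7 days, against 12.26, 12.30 and 12.20 at E21 (−1.04 ± 0.22, adjusted p = 0.00248). The stress factor Atf5 was higher, at 11.35, 10.99 and 12.04 at 7 days, against 9.96, 10.45 and 9.86 at E21 (1.37 ± 0.32, adjusted p = 0.00554).

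Steap4, a metalloreductase, was the acute phase gene with the largest rise, at 11.88, 12.09 and 12.39 at 7 days, against 9.10, 9.07 and 9.66 at E21 (2.84 ± 0.29, adjusted p = 5.59e-06). Prlr, the prolactin receptor, read 11.20, 11.44 and 11.28 at 7 days, against 10.26, 8.03 and 8.85 at E21 (2.26 ± 0.45, adjusted p = 0.00181), with E21 replicate 1 the highest fetal array. Osgin1, a target of the antioxidant factor NRF2, read 9.68, 10.34 and 9.51 at 7 days, against 6.40, 6.54 and 8.15 at E21 (2.81 ± 0.59, adjusted p = 0.00262). Timd4, a phagocytic receptor of resident macrophages, read 8.83, 9.03 and 9.28 at 7 days, against 5.62, 5.43 and 7.28 at E21 (2.93 ± 0.54, adjusted p = 0.00102, 2 E21 arrays dim; it rose by at least 2.55 with those readings at the background limit). Marco, a scavenger receptor, read 13.14, 13.09 and 12.68 at 7 days, against 10.68, 9.41 and 10.94 at E21 (2.63 ± 0.49, adjusted p = 0.00113).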
